A study of Mus musculus with 4 samples.

Results

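The alpha-defensins are small antimicrobial peptides of Paneth cells, and most of their genes lie side by side on mouse chromosome 8. The family was taken as every gene whose symbol on the mm9 build (GENCODE M1 annotation) starts with Defa, together with AY761184. Of 30 such symbols, 16 had exon blocks in the deposited matching reference of 20906 condensed genes, 2 blocks each and 5716 bases in all, and 13 of these 16 are annotated as protein coding. In full, Defa24 (ENSMUSG00000064213.5) is annotated at chr8:22844966-22845943, Defa20 (ENSMUSG00000065958.3) at chr8:22619730-22620709 and Defa5 (ENSMUSG00000074439.4) at chr8:22437118-22438054, all on the plus strand. AY761184 (ENSMUSG00000058618.6) lies at chr8:22812991-22814117 on the minus strand. The other 14 symbols are pseudogenes without an exon block and were not analysed here. Small intestine and colon of C57BL/6 mice aged 9 to 10 weeks were sequenced as SOLiD color-space reads in 4 libraries, to screen for non-annotated transcripts. In each tissue 1 library was made from polyadenylated RNA by SMART cDNA synthesis (cDNA fragmented), and 1 from ribosomal RNA-depleted RNA with the Whole Transcriptome Analysis Kit. The labels give these selections and the strain, while the study describes polyadenylated RNA for its libraries made with that kit. The read totals of those libraries also differ from the ribosomal RNA-depleted ones here, which may therefore be other libraries than the study describes, so that its methods may not hold for them. The methods name jejunum and distal colon as the tissues. The study states that both tissues came from the same animals, without tying single libraries to single mice. No group had a treatment, and no genetic change is named for any. With 1 library per tissue and protocol, no difference could be set against the variation between mice, and the 95% intervals given cover counting error only.

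Paneth cells sit at the base of the small intestinal crypts and release granules rich in alpha-defensins, which in the mouse are also called cryptdins. Each peptide is made as an inactive precursor, encoded by 2 exons, of which the first holds the signal and pro region and the second the cysteine-rich mature peptide. In the mouse the precursor is cut by matrilysin, the product of Mmp7. The colon normally has few or no Paneth cells.

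The second coding exons show how little separates the genes, and are printed because a read of 35 colors has to tell them apart. All are on the plus strand of mm9 and capitals mark bases that differ from Defa24. Defa24 lies at chr8:22845740-22845846, Gm15284, a copy that had no exon block in the reference, at chr8:22275073-22275179, Defa3 at chr8:22427853-22427959, Defa23 at chr8:22195491-22195597, Defa26 at chr8:22729245-22729351, Defa5 at chr8:22437851-22437957 and Defa21 at chr8:22165993-22166099.
Defa24: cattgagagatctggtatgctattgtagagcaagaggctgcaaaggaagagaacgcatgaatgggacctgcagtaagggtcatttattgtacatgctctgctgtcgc
Gm15284: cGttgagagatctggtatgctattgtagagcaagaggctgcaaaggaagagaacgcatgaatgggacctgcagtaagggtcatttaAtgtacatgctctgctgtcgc
Defa3: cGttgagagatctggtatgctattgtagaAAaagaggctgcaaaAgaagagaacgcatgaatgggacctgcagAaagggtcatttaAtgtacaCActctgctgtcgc
Defa23: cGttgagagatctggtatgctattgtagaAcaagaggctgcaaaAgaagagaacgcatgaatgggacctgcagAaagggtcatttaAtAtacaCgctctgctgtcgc
Defa26: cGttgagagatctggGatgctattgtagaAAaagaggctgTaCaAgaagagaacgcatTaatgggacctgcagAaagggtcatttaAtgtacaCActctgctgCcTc
Defa5: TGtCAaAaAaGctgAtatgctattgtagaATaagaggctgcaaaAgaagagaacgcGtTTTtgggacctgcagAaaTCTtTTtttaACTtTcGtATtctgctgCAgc
Defa21: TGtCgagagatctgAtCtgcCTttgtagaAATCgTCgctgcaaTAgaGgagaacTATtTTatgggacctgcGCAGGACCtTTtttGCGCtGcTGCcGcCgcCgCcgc

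Over these 107 bases Gm15284 differed from Defa24 at 2 positions, Defa23 at 7, Defa3 at 8, Defa26 at 14, Defa5 at 30 and Defa21 at 43. The exon of Defa17 was identical to that of Defa3, and the exon of Defa-rs7 to that of Defa23. Defa21 and Defa22 differed from each other at 1 position. The second coding exon of Defa20 is longer, with 113 bases at chr8:22620500-22620612, and is printed without comparison.
Defa20: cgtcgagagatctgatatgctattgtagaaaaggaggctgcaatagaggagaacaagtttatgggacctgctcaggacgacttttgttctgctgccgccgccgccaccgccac

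Small intestine gave 22484041 uniquely placed reads with polyadenylated RNA and 2035386 after ribosomal RNA depletion, and colon 24798934 and 3478387. The tissue labels were set beside marker lists chosen with earlier results of these data known, so the counts are a description. In both protocols 6 of 6 small intestinal enterocyte genes were 3-fold higher in small intestine. Of the colonocyte genes found, 4 of 4 were 3-fold higher in colon, also in both protocols. Genes of pancreatic acinar cells went opposite ways in the protocols. With polyadenylated RNA their 7 genes together had 3 small intestine reads and 11618 colon reads, but 5290 and 24 with ribosomal RNA depletion, and Amy2a5 had 0 in all. Their part in the alpha-defensin values was not tested.

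Most windows of the family had a close copy. Of 4392 windows of 35 bases inside the blocks of the alpha-defensin stretch, which holds all members but Defa-ps12 and Defa-ps13, 2487 (56.6%) had an identical window elsewhere in the exon reference. Another 1108 windows had a neighbour at 1 base difference, and 217 (4.94%) were at least 4 differences from any other. Every window of Defa23, Defa-rs7 and Defa3 was identical to another, so the 0 reads of these 3 genes in all libraries cannot be read as absence of expression. Defa21 and Defa22 kept 71 and 46 windows with no identical partner, whereas Defa20 kept 324 of 359. Annotated exons outside the reference held further copies, with an identical window for 324 of the 359 windows of Defa20, 317 of 353 of Defa5 and 134 of 214 of Defa24. Reads of such copies would be counted on the member. The pseudogene symbols Defa-ps12 and Defa-ps13, which lie among the beta-defensin genes, had no read in any library, although 82 and 115 of their windows were at least 4 differences from any other in the exon reference and from the exons outside it. With 82 windows, 0 reads allowed up to 1.63 reads per kb of window and 1000000 uniquely placed reads for Defa-ps12 in polyadenylated RNA of small intestine, counting 3 reads as the limit.

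In small intestine the family was among the most abundant RNAs measured. It took 613967 reads, or 27307 per 1000000 uniquely placed reads (RPM, 27238 to 27375), with polyadenylated RNA. With ribosomal RNA depletion it took 6974 reads, or 3426 RPM (3346 to 3508). A gene counted as detected from 5 reads on, if they began at more than 2 start points, and 11 of 16 members were detected in both small intestine libraries. Of the 20906 genes 69.3% and 57.9% were. From reads without mismatches alone, 6 members were detected with polyadenylated RNA and 3 with ribosomal RNA depletion, where reads with at most 1 mismatch gave 6. The percentages over all genes are for reads of all mismatch classes. All windows of Defa17, Defa21 and Defa22 were within 2 differences of another window, where the matching left no mismatch-free read.

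Defa24 and Defa20 led the family, but their order depended on the protocol. Defa24 had 245972 reads in polyadenylated RNA of small intestine, 70 in colon, 626 in ribosomal RNA-depleted RNA of small intestine and 1 in colon. Defa20 had 180280, 84, 4366 and 37 reads in the same libraries. Small intestine was high and colon low for both genes in each protocol.

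Per length, Defa24 reached 38794 reads per kb of exon and 1000000 uniquely placed reads (RPKM) in polyadenylated RNA of small intestine, the highest level of the 20906 genes, and Defa20 18778, rank 4. In ribosomal RNA-depleted RNA the order turned, with 5024 RPKM for Defa20 (rank 8) and 1091 for Defa24 (rank 46). Defa24 took 40.1% of the family's reads in the first library and 8.98% in the second, while Defa20 went from 29.4% to 62.6%. The ratio of polyadenylated to ribosomal RNA-depleted RPM was 35.6 (32.9 to 38.5) for Defa24 and 3.74 (3.63 to 3.85) for Defa20. For comparison it was 3.53 (3.42 to 3.64) for Lyz1, the lysozyme of Paneth cells, and 8.42 (6.76 to 10.6) for Mmp7. The blocks of Defa24 hold coding bases and the stop codon only, and those of Defa20 also hold untranslated bases, so the lengths do not cover the same portion of each transcript.

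**Figure D1:**
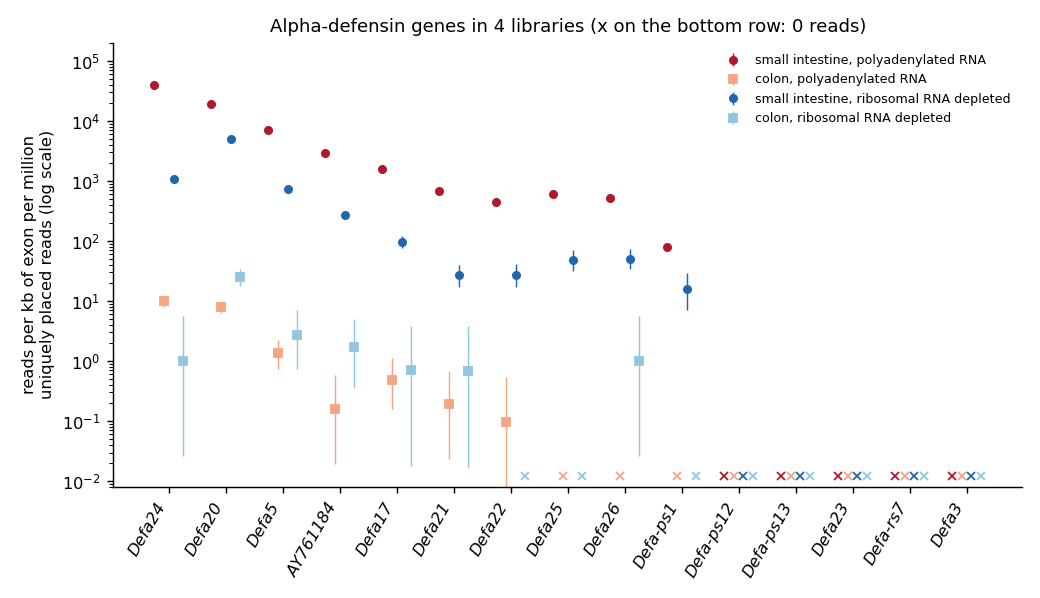
RPKM (log scale) for 15 of the 16 genes in 4 libraries; bars are exact Poisson 95% intervals and crosses mark 0 reads. Defa24 leads in polyadenylated small intestine at 38794 and Defa20 in the ribosomal RNA-depleted one at 5024, and for each gene with reads both small intestine values lie above both colon values.

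Defa5 and AY761184 had lower RPKM than Defa24 and Defa20 in both small intestine libraries. Defa5 had 67265 reads in polyadenylated RNA of small intestine, 14 in colon, 634 in ribosomal RNA-depleted RNA of small intestine and 4 in colon. AY761184 had 32816, 2, 278 and 3 reads. Their levels in polyadenylated RNA of small intestine were 7106 and 2919 RPKM. In the ribosomal RNA-depleted library Defa5 had 740 RPKM (683 to 800), and AY761184 was lower at 273 RPKM (242 to 307).

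The remaining cryptdin genes were covered less. Defa17 had 14781 reads in polyadenylated RNA of small intestine, 5 in colon, 80 in ribosomal RNA-depleted RNA of small intestine and 1 in colon. Defa21, Defa22, Defa25 and Defa26 had 6301, 4090, 3787 and 3310 reads in the first of these libraries, 23 to 29 in the ribosomal RNA-depleted small intestine, and at most 2 in either colon library. Their order by length was Defa21 (669 RPKM, 652 to 686), Defa25 (606, 587 to 625), Defa26 (522, 504 to 540) and Defa22 (438, 425 to 452), with intervals that did not overlap. In the ribosomal RNA-depleted library the intervals of these 4 genes all overlapped, between 27.0 and 50.5 RPKM. Defa-ps1, a non-coding member, had 499, 0, 9 and 0 reads.

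These levels count only the reads that could be placed, and are therefore not levels of the transcripts. Dividing instead by the windows without an identical partner moved Defa17 from 1600 to 8017 reads per kb and 1000000 uniquely placed reads, and Defa22 from 438 to 3955, as 76.1% and 86.7% of their windows had an identical partner. Defa24 rose to 67116 on that scale and Defa20 to 24747. Defa17 then stood above AY761184 (4754) in polyadenylated RNA of small intestine. Among the 4 least covered coding genes with reads, Defa22 (3955) and Defa21 (3947) then stood nearly level, above Defa25 (1574) and Defa26 (856). This scale counts every window without an identical partner alike, although those at 1 difference held only reads with 2 or 3 mismatches. All 46 such windows of Defa22 and 71 of Defa21 were at 1 difference. Of the 3787 reads of Defa25 in that library, 1541 (40.7%) lay at a single start point, and 1540 of these had 3 mismatches.

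Colon held few alpha-defensin reads. The family took 194 reads in polyadenylated RNA of colon, 7.82 RPM (6.76 to 9.00), and 52 in the ribosomal RNA-depleted library, 14.9 RPM (11.2 to 19.6). Defa24 and Defa20 made up 36.1% and 43.3% of the 194 reads, and 5 members passed the detection threshold there, among them Defa24, Defa20, Defa5 and Defa17. In the other colon library only Defa20 passed it, with 37 reads at 21 start points. With at most 1 mismatch 2 members passed in the polyadenylated colon library, and 1 without mismatches. Over all genes 72.8% and 64.9% were detected in the 2 colon libraries, from reads of all mismatch classes.

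The ratio of small intestine to colon in RPM was 3491 (3032 to 4039) for the family with polyadenylated RNA and 229 (175 to 307) with ribosomal RNA depletion. Both ratios rest on the small number of colon reads. In whole tissue, fewer Paneth cells and less RNA per Paneth cell cannot be told apart. Scaling by the median of all gene ratios in place of RPM, a log2 shift of -0.40 and -0.34 in small intestine against colon, gave 4617 and 291. Counting each start point once in place of its reads, relative to all start points of the library, gave 24.4 and 28.9. Start points cannot outnumber the places where a read can be put, on both strands. In polyadenylated small intestine Defa24 had 326 start points inside its blocks, on 163 windows without an identical partner. Family reads per start point were 165 in that library and 1.21 in polyadenylated colon.

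By gene, the ratio with polyadenylated RNA was 3876 (3067 to 4972) for Defa24, 2367 (1912 to 2968) for Defa20 and 5299 (3158 to 9694) for Defa5. For AY761184 it was 18097 with an interval from 5009 to 149442, since colon had 2 reads. The interval of Defa20 lay below those of Defa24, Defa5 and AY761184. Defa25 and Defa26 had no read in this colon library, and were at least 1392-fold and 1217-fold higher in small intestine when 3 reads are taken as the limit for colon. With ribosomal RNA depletion the ratio was 202 (146 to 287) for Defa20, 271 (105 to 997) for Defa5 and 1070 (191 to 42322) for Defa24, and these intervals overlapped.

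A 3-fold rule that adds 1 RPKM to the divisor was applied to genes present in at least 1 library of a protocol. It called 11 members higher in small intestine and none in colon with either protocol, of 11 members that had reads to compare; the other 5 had no read. Over all genes the rule called 449 of 16518 (2.72%) higher in small intestine with polyadenylated RNA and 559 of 15130 (3.69%) with ribosomal RNA depletion, and 3.2% and 6.52% higher in colon. Each of the 11 members entered the comparison through its small intestine reads, so the count is a description. From reads without mismatches alone, 7 members were called with polyadenylated RNA and 6 with ribosomal RNA depletion, with no all-gene share given. Among these 6 was Defa26, with 1 mismatch-free read in small intestine, too few for the 2 start points that presence needs. The median log2 ratio of the 11 genes, taken on RPKM plus 0.1, was 11.78 and 7.65, beside -0.36 and -0.42 over all genes compared. With the genes that had no colon read at their bound against 3 reads, it was 11.76 and 7.10.

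**Figure D2:**
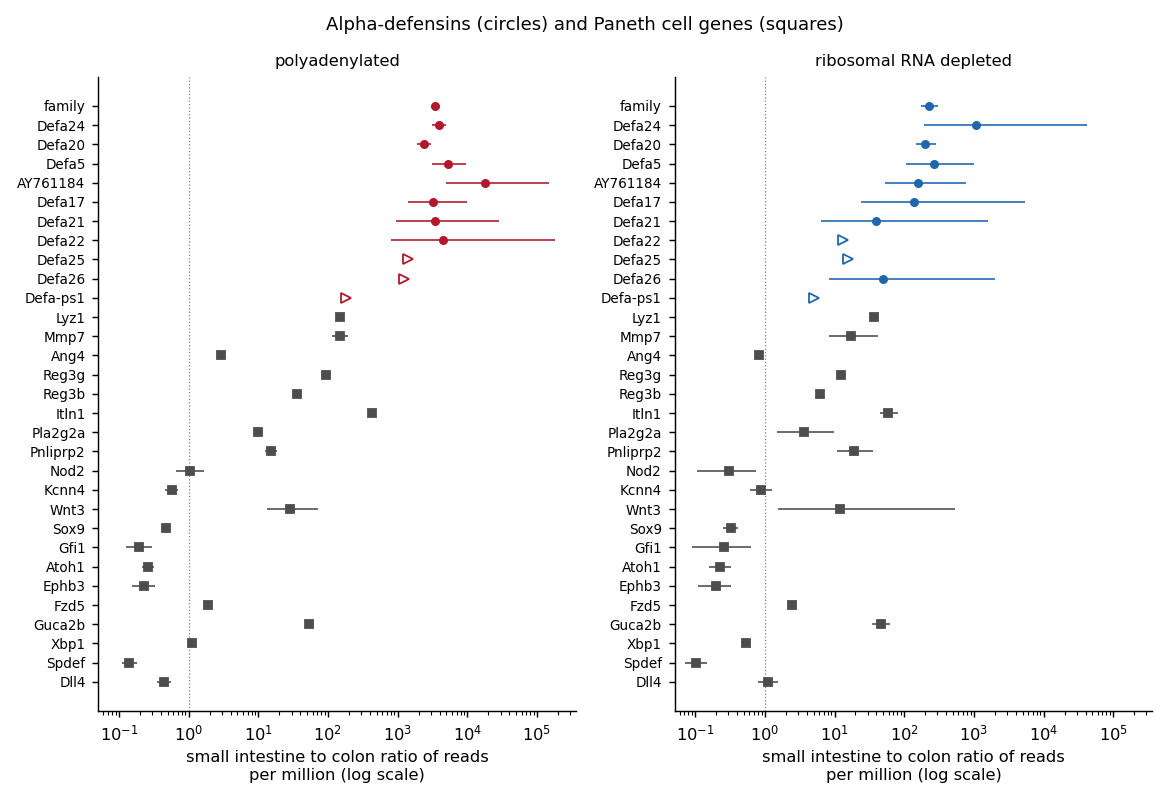
Ratio of small intestine to colon in RPM (log scale) for alpha-defensins (circles) and the Paneth cell genes with reads in all libraries (squares), by protocol; bars are exact 95% intervals and open triangles are lower bounds against 0 reads in colon. The family stands at 3491 and 229, while Lyz1 stands at 150 and 36.3.

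The reads that were placed on the family carried many mismatches. With polyadenylated RNA of small intestine, 7.06% of family reads had no mismatch (6.99 to 7.12, Wilson interval) and 55.0% had 3, the most that the matching allowed. Reads of all other genes had 35.1% without mismatch and 18.4% with 3. With ribosomal RNA depletion the family shares were 27.2% (26.2 to 28.3) and 40.2%, beside 38.1% and 17.3% for other genes. The 194 colon reads had 10.3% (6.77 to 15.4) without mismatch, and the 52 of the other colon library 19.2% (10.8 to 31.9).

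The members differed widely in this respect. Of the Defa24 reads in polyadenylated RNA of small intestine 1499 had 0 mismatches, 14038 had 1, 76943 had 2 and 153492 had 3. Defa20 had 34292, 38024, 46346 and 61618 reads in these classes. The mismatch-free share of Defa24 was thus 0.609%, and 34292 of 180280 reads of Defa20 were free of mismatches. Defa17, Defa21 and Defa22 had no mismatch-free read at all, and 98.8% and 99.6% of the reads of Defa21 and Defa22 had 3 mismatches.

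**Figure D3:**
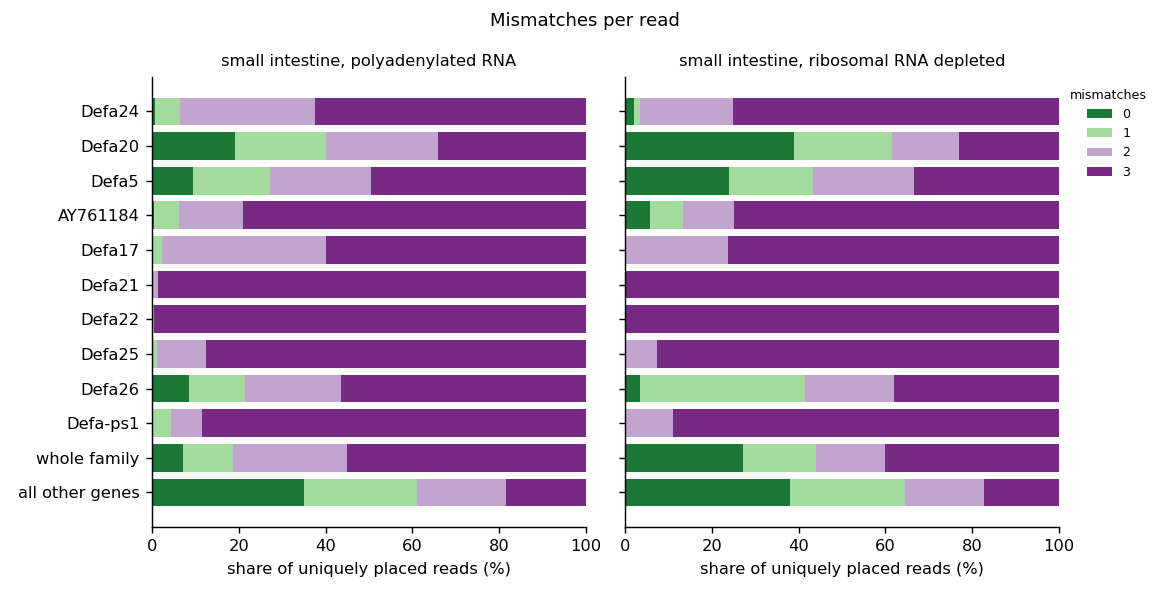
Share of uniquely placed reads (%) with 0, 1, 2 or 3 mismatches for members with reads, the whole family and all other genes in both small intestine libraries. The mismatch-free share is 7.06% in the family and 35.1% in other genes with polyadenylated RNA, and among the members is highest for Defa20.

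These classes followed the distance of a window from its nearest other window in the exon reference. On windows with an identical partner the polyadenylated small intestine library had 180 reads, all with 3 mismatches. Where the nearest window was 1 base different, 173710 reads of the polyadenylated small intestine library were placed, of which 171536 had 3 mismatches, 2174 had 2 and none had fewer. At 2 differences none of 159915 reads was free of mismatches, and at 3 differences 2390 of 83514 were (2.86%). At 4 or more differences 40947 of 168443 reads (24.3%) had no mismatch. The ribosomal RNA-depleted small intestine library showed the same steps, with no mismatch-free read at 1 or 2 differences, 7.02% at 3 and 46.7% at 4 or more. The deposited reads are those the authors' matching gave as unique within 3 mismatches. A mismatch-free read on a window 1 or 2 differences from another also matches that other window within this limit. The absence of such reads was thus set by the matching. How the 180 reads on windows with an identical partner passed as unique was not tested. Nor was it tested for the 2390 mismatch-free reads at 3 differences, which may also match another window within this limit.

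**Figure D4:**
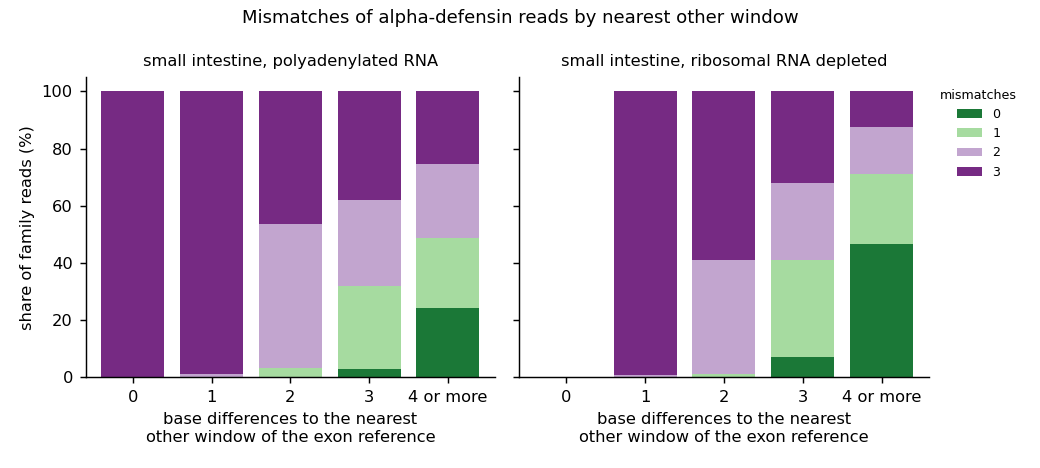
Share of alpha-defensin reads (%) with 0 to 3 mismatches, by the number of base differences between the read's window and the nearest other window of the exon reference, in both small intestine libraries. With polyadenylated RNA the share with 3 mismatches falls from 98.7% at 1 difference to 25.3% at 4 or more.

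Windows that show the step are given on the plus strand with capitals where the nearest other window of the exon reference differs. The window of Defa24 with most reads in ribosomal RNA-depleted RNA of small intestine lies at chr8:22845755-22845789. Of 3 equally near places in that reference, the one in Defa23 at chr8:22195506-22195540 is shown. Outside the reference Gm15284 has the same bases as this window of Defa24, as its exon printed above shows.
Defa24 window: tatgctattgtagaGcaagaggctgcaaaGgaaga
Defa23 window: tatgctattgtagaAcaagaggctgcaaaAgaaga
Of its 159 reads, 25.4% of all reads of Defa24 there, 76 had 2 mismatches, 83 had 3 and none had fewer. The window of Defa20 with most reads in the same library lies at chr8:22620549-22620583. Of 2 equally near places in the reference, the one in Defa21 at chr8:22166042-22166076 is shown.
Defa20 window: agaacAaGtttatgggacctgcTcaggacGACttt
Defa21 window: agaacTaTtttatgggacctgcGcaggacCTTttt
With 6 differences between these windows, 757 of 1486 reads had no mismatch, 353 had 1, 236 had 2 and 140 had 3. The 6 differences hold within the reference only, as every window of Defa20 had a copy outside it with at most 1 base difference. The window alone held 1486 of the 4366 reads of Defa20 in the library.

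Restricting the count to windows at least 4 differences from any other in the exon reference, and to mismatch-free reads, gave levels that do not rest on reads with errors. They can still hold reads of copies outside the reference, since of the 217 windows 0 were also at least 4 differences from the exons of such copies, among them 12 protein-coding genes of the stretch without any exon block. Defa20 had 84 such windows with 17291 reads per kb of window and 1000000 uniquely placed reads (17104 to 17480) in polyadenylated RNA of small intestine, 6.24 (3.32 to 10.7) in colon, 9926 (9459 to 10409) in ribosomal RNA-depleted RNA of small intestine and 30.8 (14.1 to 58.5) in colon. Defa5 had 88 windows with 3102 (3025 to 3180), 1.83 (0.499 to 4.69), 849 (719 to 995) and 3.27 (0.0827 to 18.2). Defa24 had 5 windows with 13334 (12667 to 14026) and 1179 (609 to 2060) in the 2 small intestine libraries, and no mismatch-free read in either colon library, though 12 reads with mismatches lay there with polyadenylated RNA. On this scale Defa20 stood above Defa24 in both small intestine libraries. With all reads on the same windows the order turned in polyadenylated RNA of small intestine, to 234664 for Defa24 and 53931 for Defa20. Of these reads 5.68% and 32.1% had no mismatch. With ribosomal RNA depletion all reads gave 2260 for Defa24 and 20313 for Defa20. Over all such windows the family had 40947 small intestine and 17 colon reads free of mismatches with polyadenylated RNA, a ratio of 2657 (1659 to 4561), and 1862 and 10 with ribosomal RNA depletion, a ratio of 318 (173 to 665).

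The start point with most reads held 1.75% of the Defa24 reads in polyadenylated RNA of small intestine and 25.4% after ribosomal RNA depletion, and 0.960% and 1486 of 4366 of the Defa20 reads. These shares come from libraries of unequal depth, with 245972 and 626 reads of Defa24, and were not compared at equal depth. The second block, which holds the mature peptide, took 72.2% of the polyadenylated reads placed wholly inside the blocks of Defa24 and 80.8% of those of Defa20. The windows with an identical partner, 51 in Defa24 and 35 in Defa20, all lay in the first block and held no such read. These are thus shares of placed reads and not of transcript coverage. All family reads of the polyadenylated small intestine library started at 3727 points, or 165 reads per start point, and those of the ribosomal RNA-depleted library at 591 points, or 11.8. Over the whole libraries the values were 3.06 and 2.60, and reads per start point rise with depth.

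**Figure D5:**
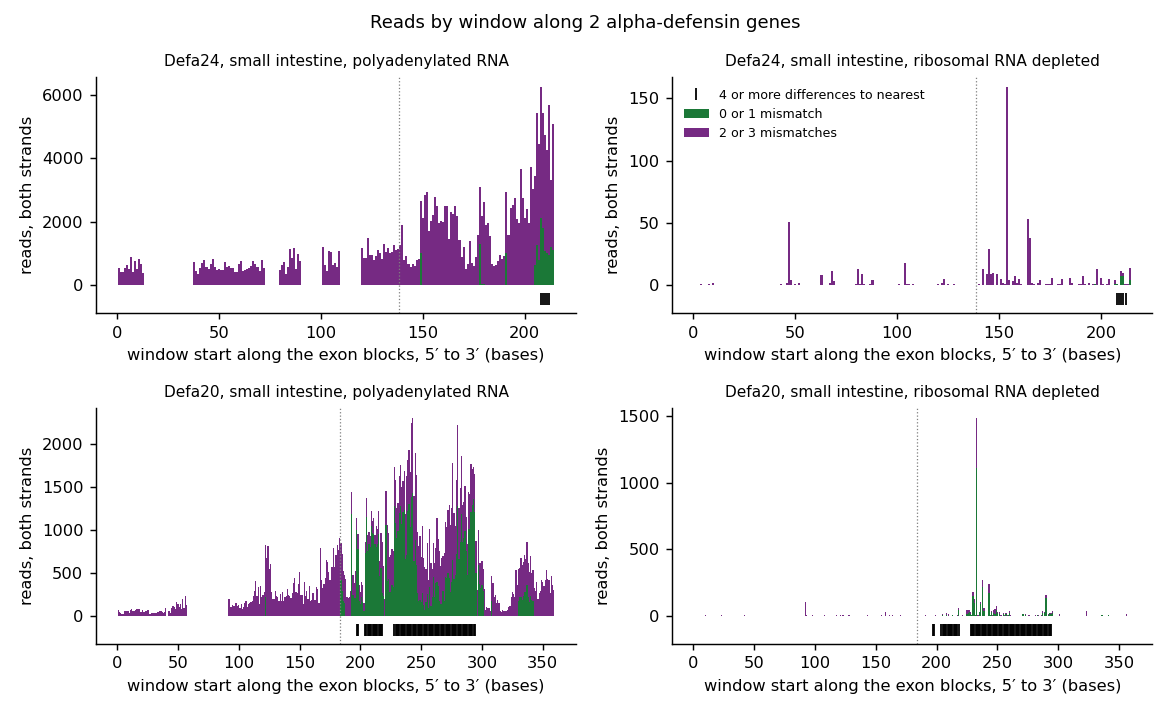
Reads on both strands per 35-base window along the exon blocks of Defa24 and Defa20, from the 5′ end, in both small intestine libraries. Green marks 0 or 1 mismatch and purple 2 or 3. Black ticks mark windows at least 4 differences from any other in the exon reference, and the dotted line the border of the blocks. In Defa20 green reads gather over the ticks, while Defa24 has 5 such windows near its 3′ end.

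Some reads placed on a member matched better elsewhere, mostly at genes that had no exon block. Each read was compared with the whole alpha-defensin stretch of mm9, and 9.29% (9.21 to 9.36) of the family's reads in polyadenylated RNA of small intestine had fewer mismatches at another place, as had 11.9% (11.2 to 12.7) with ribosomal RNA depletion. Reads that matched another place equally well are not in these shares, which therefore do not cover all reads that may stem from copies. Genes other than the members with exon blocks took 51408 of these 57021 reads in the first library and 787 of 831 in the second. Where several better places were equally good, the first found was named.

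By gene, the share with polyadenylated RNA of small intestine was 15.6% for Defa5, where 9711 of 10497 reads were better at Gm14850, and 5.58% for Defa20, where 9789 of 10052 were better at Gm15308. For Defa24 it was 1.64%, with 2958 of 4024 reads at Gm15284. Defa17 had 22.7%, and 1483 of 3359 of those reads were better at Defa3, the member whose own windows all had an identical partner. Without all reads that matched better elsewhere, but with equal matches kept, the family ratio of small intestine to colon was 3451 and 210 in the 2 protocols.

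Base changes shared by many reads were called in color space, where a true base change alters 2 neighbouring colors. Of all mismatch events in family reads, 11.2% were such pairs in polyadenylated RNA of small intestine, beside 8.41% in the whole library as reported with the deposited matching. With ribosomal RNA depletion they were 22.2% and 24.3%. By gene the share with polyadenylated RNA was 5.70% in Defa22, 5.85% in Defa24 and 20.1% in Defa26. A position was taken as departing from mm9 when at least 1000 reads of the polyadenylated small intestine library covered it and at least 20% of them had the same change. Positions count along chromosome 8 of mm9 on the plus strand, with the reference base first. Such positions numbered 5 in Defa5, 3 in AY761184, 2 in Defa20 and 1 each in Defa17 and Defa25.

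At some of them the changed base with 10 bases on each side is present elsewhere in the stretch. In Defa5, A22437855T (2137 of 4076 reads, 52.4%) matches Gm14850, and C22438017T (3792 of 5973, 63.5%) matches Gm14850 and Gm10104. In Defa20, A22620627G (9066 of 33218, 27.3%) matches Gm15308.

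At others the changed sequence was not found in the stretch. Among these were G22813263A in AY761184 (2649 of 3842 reads, 68.9%) and C22619875G in Defa20 (4903 of 11326, 43.3%). The ribosomal RNA-depleted library had the same changes in 6 of 18 and 28 of 47 reads. At the remaining such sites of the named genes it had them in 4 of 14 reads for T22813273G in AY761184 (54.9% with polyadenylated RNA), 1 of 9 for T22437161A in Defa5 (39.2%), 3 of 27 for T22224292A in Defa25 (23.4%) and 1 of 18 for C22767138T in Defa17 (21.2%). The last 3 shares are below the 20% set for the first library, on few reads. Reads were selected for carrying mismatches at such windows, so these shares are shares of the placed reads only.

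Reads of the ribosomal RNA-depleted libraries keep the strand of the RNA, and 6973 of 6974 family reads in small intestine and all 52 in colon lay on the strand of the gene. The single other read was on Defa-ps1. With polyadenylated RNA, where the strand is not kept, 43.7% (43.6 to 43.9) of family reads were on that strand, beside 48.5% of other genes, and the members ran from 33.5% in Defa17 to 61.5% in Defa-ps1.

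Reads across the junction of the 2 exons were matched separately and are not in the counts above. The family had 4555 in polyadenylated RNA of small intestine, 1 in colon, 11 in ribosomal RNA-depleted RNA of small intestine and none in the other colon library. In the first library they were 0.736% of all family reads, beside 0.822% junction reads in the whole library. Defa20 had 1278 of them, Defa5 422, AY761184 341 and Defa24 only 15.

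Other genes of Paneth cells gave a mixed picture. Of 20 genes in a list of the cell type, 8 were called higher in small intestine and 1 in colon with polyadenylated RNA, and 7 and 3 with ribosomal RNA depletion, with a median log2 ratio of 1.23 and 0.72. Lyz1 had 169108 reads in polyadenylated RNA of small intestine, 1241 in colon, 4339 in ribosomal RNA-depleted RNA of small intestine and 204 in colon. Its ratio was 150 (142 to 159) and 36.3 (31.6 to 42.0), both below the intervals of the family. Itln1, a lectin, stood at 431 (401 to 465) and 59.4 (44.3 to 81.5).

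Among the regulators on that list, Spdef, a transcription factor also needed for goblet cells, was called higher in colon with both protocols, by 7.06-fold (5.60 to 9.02) and 9.66-fold (6.83 to 14.1). Atoh1, which directs the secretory lineage, was 3.83-fold (3.16 to 4.66) and 4.35-fold (3.11 to 6.25) higher in colon, and was called with ribosomal RNA depletion only. Ang4, an antimicrobial ribonuclease, was 2.92-fold (2.84 to 2.99) higher in small intestine with polyadenylated RNA, but had a ratio of 0.816 (0.714 to 0.930) with ribosomal RNA depletion. Of 4 goblet cell genes found, none was called with polyadenylated RNA, and Clca3 was called higher in colon with ribosomal RNA depletion.

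Of the genes for precursor cleavage and granule release, 9 of 10 were found in the reference, and Mmp7 alone passed the 3-fold rule in either protocol. Mmp7 had 7530 reads in polyadenylated RNA of small intestine, 56 in colon, 81 in ribosomal RNA-depleted RNA of small intestine and 8 in colon, a ratio of 148 (114 to 197) and 17.3 (8.38 to 41.4). The list's median log2 ratio was -0.10 and -0.18. Kcnn4, a potassium channel of Paneth cell secretion, had a ratio of 0.575 (0.463 to 0.711) and 0.884 (0.603 to 1.28).

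The beta-defensins, the other defensin family of the mouse, were nearly absent from small intestine, with 28 reads over 42 genes in polyadenylated RNA and 3 in ribosomal RNA-depleted RNA. Colon had 537 and 27 reads. Defb37 accounted for most, with 6, 419, 3 and 21 reads in the order of small intestine and colon, polyadenylated RNA first, and was called higher in colon with both protocols. Defb45, with 1 and 91 reads, was called with polyadenylated RNA. The broadly expressed Defb1 had 16, 1, 0 and 0 reads.

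Neutrophil genes were rare throughout. Their 7 genes together had 55 reads in polyadenylated RNA of small intestine and 19 in colon, beside 2 and 0 after ribosomal RNA depletion. Elane and Ngp had 0 reads in all 4 libraries. Mouse neutrophils are known to lack alpha-defensins, in contrast to those of humans.

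The gene most like the summed family in its levels over the 4 libraries was Gm15315, by Euclidean distance of centred log2 values (0.753) among 12429 genes with at least 100 reads. It is itself a near copy on the alpha-defensin stretch with 1 exon block, and had 680, 0, 8 and 0 reads. Next came Fabp1 (1.32), a fatty acid-binding protein, Gip (1.48), a hormone of enteroendocrine cells, Adh6a (1.76), an alcohol dehydrogenase, and Apoc3 (1.84), an apolipoprotein. These are distances over 4 values that differ mainly by tissue.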

How the data were processed

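The authors matched reads of 35 colors with the corona pipeline to RefSeq exons and exon junctions of mm9, with up to 3 mismatches, and deposited the uniquely placed reads with their signed position and number of mismatches, not gene counts. Recounted mismatch classes equalled the deposited matching report in 4 of 4 libraries. A read belonged to the exon block that held its start, with 3 bases of tolerance. RPKM, start points, the nearest windows of 35 bases and better places on the alpha-defensin stretch were computed from these reads and the mm9 genome (Python 3.11.15, numpy 2.4.6, pandas 2.3.3, scipy 1.17.1, pysam 0.24.0), and the scripts were tested on simulated data. Total reads ran from 36419942 to 83302412. Intervals are exact Poisson for counts, Wilson for shares and exact conditional for ratios, at 95%, and cover counting error only, since reads carry no molecular identifiers. No test was made, as each tissue and protocol had 1 library. Presence needed 0.01 RPKM and 2 start points, and the 3-fold rule added 1 RPKM to the divisor. Named genes are all members, the genes of the lists for other cell types and processes, and the 5 genes nearest the summed family. One member with reads is counted in the family sums but not reported by itself here. Members and lists were chosen with earlier results of these data known. Alternatives covered mismatches, start points, strand, exon borders, scaling, detection limit and depth.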

Additional observations from a re-analysis of the deposited data

Results flagged for a closer look

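Reads across the exon junction of Defa-ps1, which are outside the exon counts, numbered 967 in polyadenylated RNA of small intestine, more than the 499 reads on its exon blocks. Colon polyadenylated RNA had 0, and the ribosomal RNA-depleted libraries had 3 in small intestine and 0 in colon. The exon block of Gm15315, a near copy on the stretch whose symbol is outside the family rule, held 680 reads in polyadenylated RNA of small intestine and 0 in colon. All 680 had 3 mismatches, and of its 138 windows 77 had an identical window elsewhere and 61 had one at 1 base difference.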

How the results depend on the processing

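Small intestine stayed above colon under every alternative run. Family levels under these settings are given per 1000000 of the reads, or start points, that the setting kept in the library. They are not per all uniquely placed reads, so they are not RPM and differ in scale between settings. In polyadenylated small intestine they were 8532 with at most 1 mismatch, 5620 with none and 508 as start points. On the gene's strand they were 24973 and inside exons 26751. Polyadenylated colon had 2.78, 2.39, 20.8 and 5.85 under the first 4. In ribosomal RNA-depleted small intestine they were 2341, 2453, 756, 3510 and 3191, and in colon 8.54, 6.73 and 26.2 under the first 3. From these levels the polyadenylated ratio was 2353 without mismatches, 24.4 by start points and 4271 on the gene's strand. With size factors it was 4617. The ribosomal RNA-depleted ratio was 364 without mismatches and 28.9 by start points. Mismatch-free reads on windows at least 4 differences from any other in the exon reference gave ratios of 2657 and 318. All such windows with reads still had a near copy among exons outside the reference. Dropping reads that match better elsewhere gave 3451 and 210. Both settings were chosen after seeing the data and were scaled by all uniquely placed reads. Members detected without mismatches were 6 in polyadenylated small intestine, 1 in colon and 3 in ribosomal RNA-depleted small intestine; with at most 1 mismatch 2 in polyadenylated colon and 6 in ribosomal RNA-depleted small intestine. With 1 read enough, 8 were detected in each colon library, and 2 in polyadenylated colon after thinning. Members called were 7 with polyadenylated RNA without mismatches, and 6 with ribosomal RNA depletion both without and with at most 1. Shares over all genes under these mismatch limits are not given here. Among the 6 without mismatches was Defa26, on 1 read. The mismatch-free share of small intestine was 8.51% by start points, 5.78% on the gene's strand and 7.40% inside exons with polyadenylated RNA, and 15.6% by start points and 29.9% inside exons with ribosomal RNA depletion. The share on the gene's strand was 38.4%, 35.8%, 49.7% and 44.7% in polyadenylated small intestine (at most 1 mismatch, none, start points, inside exons), 43.9% and 50% in colon under the first 2, and 100%, 100% and 99.8% in ribosomal RNA-depleted small intestine under the first 3. A start point counts once however many reads it holds, and the number of start points is bounded by the windows where reads can be placed. For the moved values, those by start points among them, the cause was not tested. No paired analysis was possible, with 1 library per tissue and protocol and none tied to a single mouse. A fit over both protocols with protocol as block, which has 1 residual degree of freedom, was not run. The ratios are limited by 194 and 52 colon reads.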
